A study of Homo sapiens with 4 samples.

Results

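Divergent protein-coding gene pairs are neighbouring genes that start close together and are transcribed away from each other, the left gene on the minus strand and the right gene on the plus strand. They were taken from gene positions alone, as protein-coding genes on 1 chromosome with 0 to 1000 bases between the end coordinate of the minus-strand gene and the start of the plus-strand gene. The rule gave 995 pairs, which hold 1918 of the 19874 protein-coding genes and of the 60048 genes in the table. Of these genes, 70 belonged to 2 pairs and RFXANK belonged to 3. The gap ran from 5 to 996 bases with a median of 181, and 267 pairs had a gap of at most 100 bases, 444 of more than that up to 300, 205 up to 600 and 79 up to 1000.

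Nascent RNA of HCT116 cells, a human colorectal carcinoma line, was measured by EU-seq, in which RNA made during a short pulse of 5-ethynyl uridine (EU) is captured and sequenced. All cells carried the genotype RAD21-mAC, a degron tag on the cohesin subunit RAD21, so the control cells carried it too. Control cells were given DMSO. The other group was given auxin (indole-3-acetic acid, 0.5 mM, 3 h), which triggers degradation of the tagged RAD21. Each group held 2 libraries, and the EU pulse was 0.5 mM and lasted 20 min in both. The labels do not say whether the libraries came from separate cultures or how many clones were used, so p-values measure only the spread between these libraries.

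At a divergent promoter the start sites lie back to back, and both genes can share 1 nucleosome-free region and its bound factors. Such promoters are typically CpG-rich, lack TATA boxes and drive housekeeping genes, among them genes for DNA repair, mitochondrial proteins and histones. Cohesin holds chromatin loops together and brings distant enhancers near promoters, so a pair offers a comparison of genes with nearly the same position but separate transcription units.

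The DNA between the start sites is shown for 6 pairs on which the results below turn, or which serve as a textbook case. The letters are those of the plus strand from the end of the minus-strand gene to the start of the plus-strand gene, taken from RefSeq promoter windows (GRCh38.p14). Capitals mark matches, on either strand, to GGGCGG (the SP1 box), CCAAT (the NFY box) or CCGGAA (the core of ETS-factor sites). The first is the 1 pair in which both genes were called as changed (chr7:105876600-105876820), and the second is the divergent pair whose change of ratio had the smallest p (chr6:122471808-122471916). In the next 3, chr1:52404424-52404601, chr12:15882293-15882386 and chr3:53846420-53846567, only the minus-strand gene was called. The last is the collagen IV pair (chr13:110307158-110307283).
ATXN7L1-CDHR3: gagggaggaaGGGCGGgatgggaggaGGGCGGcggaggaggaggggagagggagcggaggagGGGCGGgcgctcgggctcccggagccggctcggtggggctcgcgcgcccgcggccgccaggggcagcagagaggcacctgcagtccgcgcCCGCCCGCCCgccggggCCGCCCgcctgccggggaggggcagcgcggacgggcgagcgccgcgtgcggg
SERINC1-PKIB: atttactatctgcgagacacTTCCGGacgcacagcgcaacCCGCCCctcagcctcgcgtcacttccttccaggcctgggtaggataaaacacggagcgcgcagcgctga
ORC1-PRPF38A: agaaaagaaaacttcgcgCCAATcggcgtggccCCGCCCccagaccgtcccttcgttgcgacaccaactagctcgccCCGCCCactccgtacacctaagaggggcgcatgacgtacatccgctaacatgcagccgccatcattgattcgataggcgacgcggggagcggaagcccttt
EPS8-STRAP: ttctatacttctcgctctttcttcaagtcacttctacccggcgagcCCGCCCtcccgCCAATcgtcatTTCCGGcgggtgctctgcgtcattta
CHDH-IL17RB: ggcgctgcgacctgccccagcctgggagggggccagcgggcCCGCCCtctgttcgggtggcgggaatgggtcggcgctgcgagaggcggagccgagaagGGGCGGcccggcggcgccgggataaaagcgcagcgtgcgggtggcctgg
COL4A1-COL4A2: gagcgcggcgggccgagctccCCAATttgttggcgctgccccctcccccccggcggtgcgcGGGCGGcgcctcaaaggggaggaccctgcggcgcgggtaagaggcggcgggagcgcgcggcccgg
The stretch between ATXN7L1 and CDHR3 was 83.3% G+C with 33 CpG dinucleotides in 221 bases and held 6 matches to the SP1 box. Between SERINC1 and PKIB, 60.6% of 109 bases were G+C, with 1 SP1 box and 1 ETS core. Both the EPS8-STRAP stretch (55.3% of 94 bases) and the ORC1-PRPF38A stretch (61.2% of 178 bases) held an NFY box, and the former also an ETS core. No stretch of the 6 held TATAAA, the TATA box.

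These features were counted in all promoter windows, which run from 250 bases before to 50 bases after a RefSeq start. A window was used where its start lay within 50 bases of the start in the table, which gave 1283 of the 1918 genes of divergent pairs and 12073 protein-coding genes in all. The windows of divergent pairs had a median of 27 CpG dinucleotides and 64.7% G+C, against 22 and 63.0% in 10790 protein-coding genes outside such pairs. The ETS core was in 43.3% of the windows of divergent pairs and in 21.7% of those outside, with 24.0% over all windows. The SP1 box was in 73.2% against 60.0% (61.4% over all), and the NFY box in 43.1% against 36.3% (37.0% over all). The TATA box ran the other way, with 3.35% against 10.5% (9.74% over all). In 570 windows of genes from close convergent neighbours, the ETS core was in 27.2% and the TATA box in 6.32%. All motifs were searched on both strands, no motif contains another, and the windows of 1 pair often overlap, so they are not independent and no test was made. With a median gap of 181 bases, many windows of divergent pairs also cover the start of the partner. Such a window holds promoter sequence of both genes, and how far this moves the shares was not tested.

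**Figure D1:**
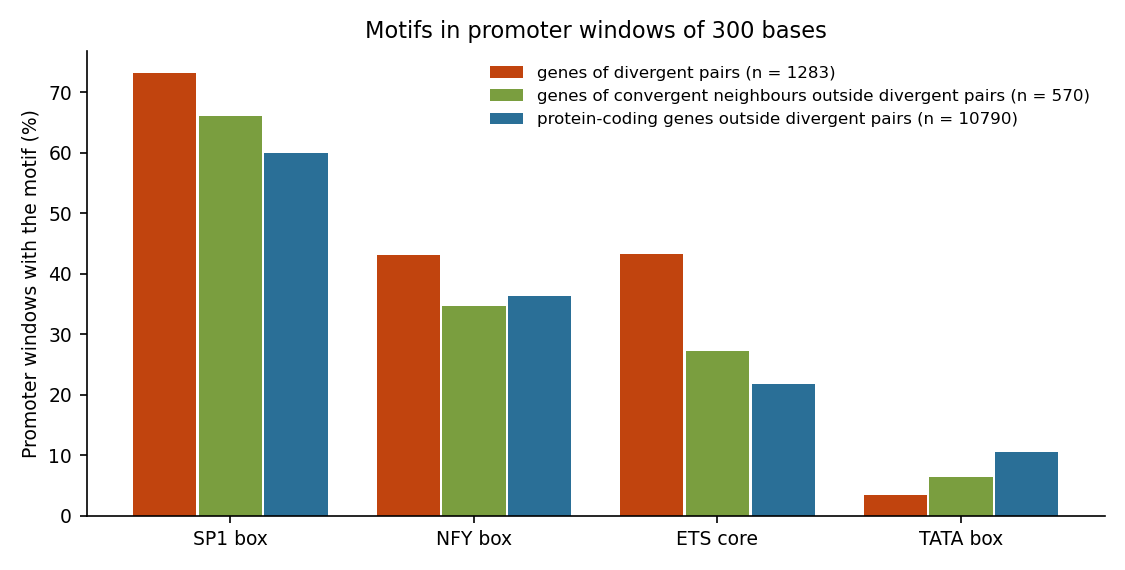
Share of 300-base promoter windows (vertical axis, percent) that hold each of 4 motifs on either strand, for genes of divergent pairs (n = 1283), genes of close convergent neighbours outside such pairs (n = 570) and all protein-coding genes outside divergent pairs (n = 10790). The ETS core stands at 43.3% in divergent pairs and 21.7% outside, and the TATA box at 3.35% and 10.5%.

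Values were a deposited signal per gene span, introns included, which was brought to a common scale between libraries (scaled signal). Deposited totals ran from 61135244 to 93113007. The signal did not separate strands: 1033 lncRNA genes lying inside 1 protein-coding gene on the opposite strand had a median of 96.4% of the host's signal per kb, against 96.5% for 261 on the same strand. Genes of divergent pairs do not overlap their partner, but 1103 of the 1918 overlapped another gene, and in 199 pairs neither gene did. The colorectal label was checked on epithelial markers, of which KRT18 and KRT19 lay at the 99.8 and 99.9 percentile of protein-coding genes by signal per kb, and VIL1 at 40.2. The 9 epithelial markers summed to between 63900 and 70974 in each library. Summed fibroblast markers ran from 649 to 1086, nearly all of it COL1A1, and endothelial markers from 581 to 819. Both sums were higher in the auxin libraries, and their part in the results below was not tested.

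Genes of divergent pairs were well transcribed. Of the 1918 genes, 1903 passed the filter on low values, with a median signal of 111 per kb, against 63.2 for protein-coding genes that passed. This was not particular to divergent pairs, whose left and right genes had control medians of 110 and 113 per kb. Convergent neighbours within 1000 bases had 131 and 136, and tandem neighbours within 1000 bases 172 and 169. Divergent neighbours more than 1000 and up to 10000 bases apart were lower, at 75.5 and 72.3. The median span of genes of divergent pairs was 24896.5 bases, close to the 24758.5 of protein-coding genes. The 15 genes that did not pass included the histone genes H2AC1, H2BC1, H2AC8 and H2BC8, the sperm gene CAPZA3 and the inhibin gene INHA. H2AC8 and H2BC1 were listed at 0 in every library.

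Within a pair the levels were often far apart. Across 995 pairs, Spearman's rho between the control signal per kb of the minus-strand and the plus-strand gene was 0.452. Among 984 pairs with both genes above 0 in every library, the median distance was 1.26 on the log2 scale (quartiles 0.583 and 2.34), while the median SD of that log2 ratio between the control libraries was 0.147. The same gene was the higher one in every library in 888 pairs. The plus-strand gene was higher in 493 and the minus-strand gene in 491, nearly equal numbers. In 581 pairs the genes differed more than 2-fold per kb, in 128 more than 10-fold and in 9 more than 100-fold. Unequal levels were not particular to divergent pairs. The median distance was 1.5 in convergent neighbours within 1000 bases and 1.5 in tandem neighbours (same strand) within 1000 bases. In divergent neighbours more than 1000 and up to 10000 bases apart it was 1.68. These differences between classes were not tested.

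The 9 pairs beyond 100-fold, named here after their values were seen, include several that set a housekeeping gene beside a gene of restricted expression. BTK, a kinase of B cells, had 1.74 per kb in control and its neighbour RPL36A, a ribosomal protein gene 27 bases away, had 731. PATL2 had 2.16 and B2M, the light chain of MHC class I, had 240.0. FBXO15 had 0.853 and TIMM21, a mitochondrial import factor, had 169. The reverse arrangement held for YIPF5 (86.5) beside KCTD16 (0.595) and for PUS3 (189), a pseudouridine synthase, beside DDX25 (1.55). The others were C1orf232-ZNF593, ATP5MPL-TDRD9, SAXO1-RRAGA and BTK with the read-through locus RPL36A-HNRNPH2, which shares signal with RPL36A. Over the 4 libraries the SD of the log2 ratio in these 9 pairs was between 0.18 and 0.84. The highest summed signal per kb was found in the histone pairs H2BC12-H2AC12 (1785 and 1610 in control) and H2AC17-H2BC17 (2062 and 1059), and in CLDN6-TNFRSF12A (48.3 and 2377).

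**Figure D2:**
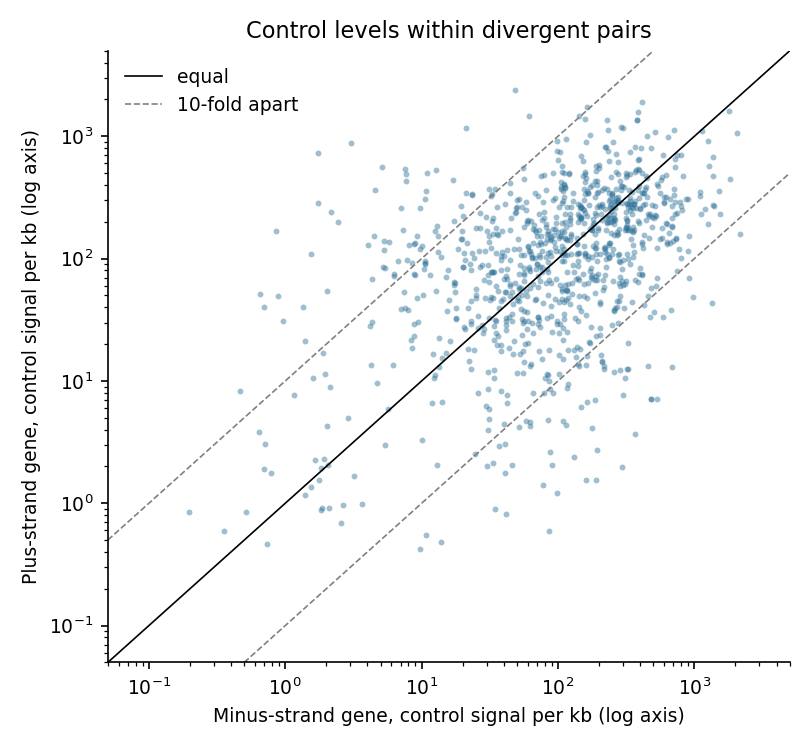
Mean control signal per kb of the minus-strand gene (horizontal, log axis) and of the plus-strand gene (vertical, log axis), 1 point for each of 988 pairs with both genes above 0 in control. The solid line marks equal levels and the dashed lines 10-fold; points scatter on both sides of equality, and rho was 0.452 over all 995 pairs.

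The comparison of auxin with control asked which of these genes differed after auxin, and whether the genes of a pair changed together. No group was given auxin without the tag, so effects of auxin itself cannot be told apart from those of RAD21 loss. Of 1903 genes tested, 10 were called (limma adjusted p under 0.05 over all 39464 genes tested), 2 higher and 8 lower with auxin. That is 0.525%, against 0.732% of all genes tested and 1.17% of protein-coding genes tested. By direction, the background over all genes was 0.332% higher and 0.4% lower. Their log2 fold changes had a median of -0.033 (quartiles -0.19 and 0.11), against -0.011 over protein-coding genes and 0.0089 over all genes. Before adjustment, 262 (13.8%) had a limma p under 0.05, against 14.6% of protein-coding genes. The 10 genes lay in 9 pairs, and only in ATXN7L1-CDHR3 were both genes called.

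The count depended on the libraries, the scale and the model. With the replicate number added to the fit as a block, 327 genes were called (17.2%, against 10.8% of all genes in that fit). The share of protein-coding genes in that fit is not given here. The main fit had no block, and the labels do not say that equal numbers mark a shared day. Leaving out control replicate 1 gave 10 calls (0.525%, against 0.88% of all genes in the same fit), and leaving out control replicate 2 gave 3 (0.158% against 0.341%). Leaving out auxin replicate 1 gave 25 (1.31% against 1.76%), and leaving out auxin replicate 2 gave 21 (1.1% against 1.39%). On the deposited scale 1 gene, CDHR3, was called, and scaling by library totals gave 9 calls, of which 4 were higher and 5 lower. Without the filter on low values CDHR3, TMEM200A, PKIB and SNX25 were left.

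CDHR3, a cadherin-related protein known as the receptor of rhinovirus C (GRCh38 chromosome 7, 105876821 to 106032465, plus strand), had a scaled signal of 4954 and 6442 in control and 1583 and 2080 in auxin. The auxin libraries lay far below both controls. The log2 fold change was -1.64 (SE 0.18, limma adjusted p = 0.00322). Its partner ATXN7L1, a paralogue of the SAGA subunit ataxin 7 (105604772 to 105876599, minus strand), had 15862 and 16411 in control and 9178 and 10729 in auxin. It fell by 0.70 on the log2 scale (SE 0.12, adjusted p = 0.0323). The pair thus moved in 1 direction but not by one amount, since the ratio of CDHR3 to ATXN7L1 fell by 0.94 (SE 0.19, adjusted p = 0.0486). CDHR3 overlaps no other gene of the table, and ATXN7L1 overlaps 1. The call of CDHR3 held without each library in turn, whereas that of ATXN7L1 was lost without control replicate 1 (adjusted p = 0.0587), control replicate 2 (0.112) or auxin replicate 1 (0.0564). The ratio lost its call without control replicate 2 (0.0918), with a pseudocount of 0.1 (0.0501) or 10 (0.0512), and with the filter raised to a mean of 50 (0.0544).

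TMEM200A, a transmembrane protein gene (chromosome 6, 130366017 to 130443067, plus strand), had 1083 and 1006 in control and 388 and 445 in auxin. It fell by 1.33 (SE 0.19, limma adjusted p = 0.0129), and the call held without each library. The partner SAMD3, 591 bases away, had 1073 and 806 in control and 498 and 519 in auxin. Its groups did not overlap either, but its log2 fold change of -0.87 (SE 0.20) had an adjusted p of 0.104. The ratio between these genes was not called (change -0.46, adjusted p = 0.381).

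In SERINC1-PKIB the genes parted. PKIB, an inhibitor of protein kinase A (chromosome 6, 122471917 to 122726372, plus strand), had 2212 and 3536.5 in control and 932 and 1195 in auxin, and fell by 1.41 (SE 0.23, limma adjusted p = 0.025). SERINC1, a member of the serine incorporator family that starts 109 bases away, had 2426 and 3369 in control and 3829 and 4572.5 in auxin, and its change of 0.55 (log2, SE 0.18) had an adjusted p of 0.274. Both controls differed in the same sense for these genes, with control replicate 2 above control replicate 1. The ratio of PKIB to SERINC1 fell by 1.95 (SE 0.19, adjusted p = 0.00276), the smallest p among the divergent pairs. That ratio was called without each library in turn, with changes from -2.06 to -1.85, while the call of PKIB alone was lost without control replicate 2 (adjusted p = 0.0843). PKIB overlaps 5 lncRNA genes of the table and SERINC1 overlaps 1.

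SNX25, a sorting nexin (chromosome 4, 185204237 to 185363971, plus strand), had 11051 and 12352 in control and 5909 and 7231 in auxin, a fall of 0.84 (SE 0.14, limma adjusted p = 0.0269). Its partner CFAP97 had 7537 and 8191 in control and 6480 and 5937 in auxin, with a log2 fold change of -0.34 (adjusted p = 0.36). The span of SNX25 shares bases with LRP2BP. The call was lost without control replicate 2 (adjusted p = 0.109).

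The higher genes were ZFYVE28 and TBC1D8, both minus-strand genes. In the table, 3 other genes overlap ZFYVE28 and 1, TBC1D8-AS1, overlaps TBC1D8. ZFYVE28, a negative regulator of EGF receptor signalling (chromosome 4, 2269597 to 2418645), had 10277 and 8168 in control and 15189 and 16902 in auxin, a rise of 0.81 (SE 0.14, limma adjusted p = 0.031). The neighbouring CFAP99 had a low signal of 239 and 167 in control and 297 and 316 in auxin, with a log2 fold change of 0.61 (adjusted p = 0.407). TBC1D8, which carries a domain of GTPase-activating proteins for Rab GTPases (chromosome 2, 101090253 to 101252866), had 6969 and 7438 in control and 10930 and 14671 in auxin, a rise of 0.81 (SE 0.15, adjusted p = 0.0423). CNOT11, a CCR4-NOT subunit only 19 bases away, had 2969 and 2973 in control and 3135 and 3195 in auxin, a value of 0.091 on the log2 scale (SE 0.14) that was not called (adjusted p = 0.939). The call of ZFYVE28 was lost without control replicate 2 (0.107). That of TBC1D8 was lost without control replicate 1 (0.0869), control replicate 2 (0.0966) or auxin replicate 2 (0.12), and with the filter raised to a mean of 50 (0.0544).

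The remaining called genes were lower with auxin and on the minus strand. ORC1, the large subunit of the origin recognition complex (chromosome 1, 52372829 to 52404423), had 4364 and 4878 in control and 2293 and 2845 in auxin, a fall of 0.85 (SE 0.16, limma adjusted p = 0.0425). Its partner PRPF38A, a spliceosomal protein, had 3116 and 3804 in control and 3265 and 3624 in auxin, a log2 fold change of -0.0012 (SE 0.16). The ratio of PRPF38A to ORC1 rose by 0.85 (SE 0.17, adjusted p = 0.0488). EPS8, an actin regulator downstream of the EGF receptor (chromosome 12, 15620181 to 15882292), had 4260 and 5936 in control and 2417 and 2820 in auxin, a fall of 0.95 (SE 0.18, adjusted p = 0.0473). STRAP, 94 bases away, had 5429 and 5908 in control and 5344 and 5643 in auxin, a log2 fold change of -0.045 (SE 0.13), and the ratio was just short of the threshold (change 0.90, adjusted p = 0.0552). CHDH, the mitochondrial choline dehydrogenase (chromosome 3, 53812335 to 53846419), had 3834 and 3419 in control and 2018 and 2166 in auxin, a fall of 0.79 (SE 0.15, adjusted p = 0.046). IL17RB, the receptor of IL-25, had 2441 and 2434.5 in control and 1430 and 1724 in auxin, and its change of -0.63 (log2, SE 0.16) had an adjusted p of 0.142. So the partner of CHDH had a similar value and the partners of ORC1 and EPS8 had values near 0.

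These 3 calls lay close to the threshold. With scaling by library totals the adjusted p was 0.0551 for ORC1, 0.066 for EPS8 and 0.0618 for CHDH. EPS8 lost its call without control replicate 2 (adjusted p = 0.175). ORC1 lost it without control replicate 1 (0.0548), control replicate 2 (0.156) or auxin replicate 1 (0.104), and CHDH without control replicate 1 (0.116), control replicate 2 (0.0837) or auxin replicate 1 (0.0946). The ratio of PRPF38A to ORC1 lost its call without control replicate 1 (0.0578) or auxin replicate 1 (0.105), with a pseudocount of 0.1 (0.0503) or 10 (0.0506), and with the filter raised to a mean of 50 (0.0527). CHDH overlaps the large gene CACNA1D and EPS8 overlaps 3 genes that are not protein-coding, whereas ORC1 overlaps no gene of the table.

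**Figure D3:**
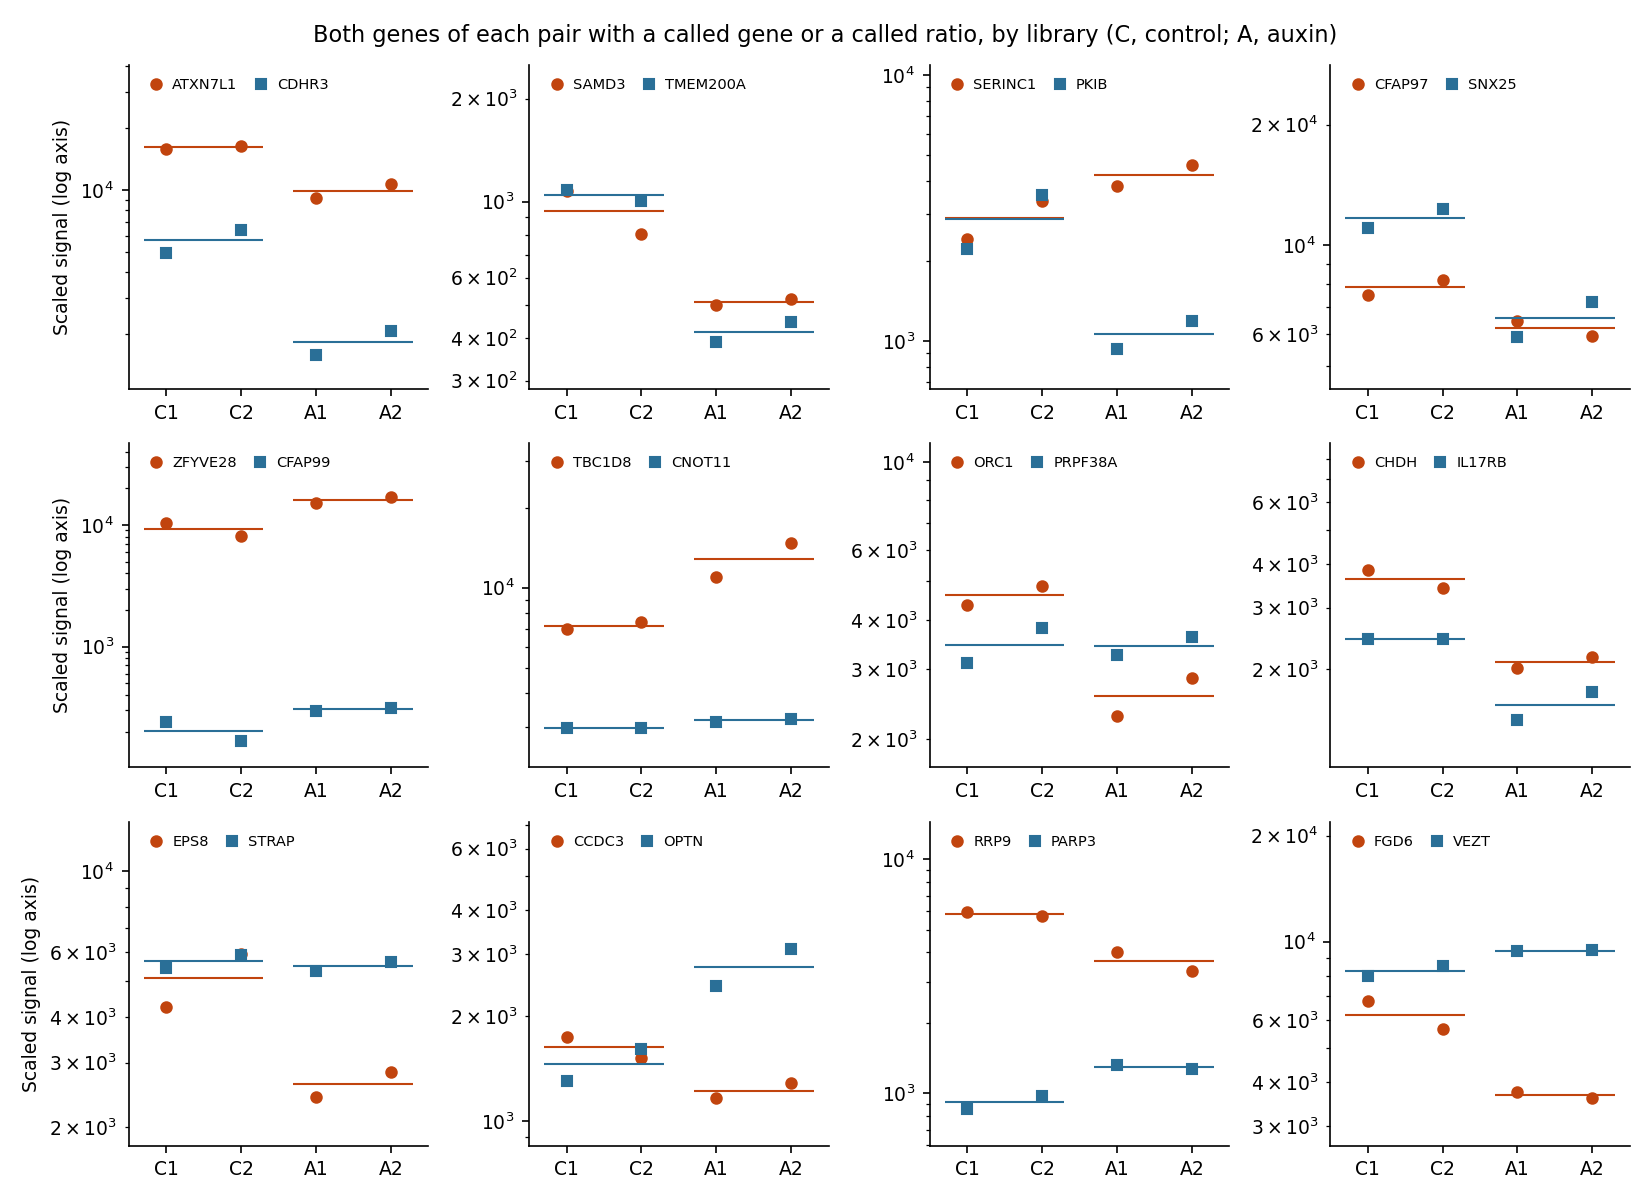
Scaled signal (vertical, log axis) of both genes of 12 pairs in control (C1, C2) and auxin (A1, A2) libraries. Circles are the minus-strand gene, squares the plus-strand gene and bars the group means of 2 libraries. In ATXN7L1-CDHR3 both genes are lower in auxin, and in SERINC1-PKIB PKIB is lower while SERINC1 is not.

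The ratio within a pair was tested directly, because both genes come from 1 library and its scaling hardly enters. Of 982 divergent pairs with both genes tested, 6 had a called change of ratio (limma adjusted p under 0.05 over 14296 neighbouring protein-coding pairs of all orientations), or 0.611%, against 1.4% of all pairs fitted. Before adjustment, 103 (10.5%) had a p under 0.05, against 14.7% of all pairs fitted. The pairs fitted include neighbours far apart, and low shares were not particular to divergent pairs. Of convergent neighbours within 1000 bases, 0.777% had a called ratio and 11.8% an unadjusted p under 0.05. Of tandem neighbours within 1000 bases, it was 0.25% and 7.5%. Leaving out control replicate 1 gave 15 called ratios (1.53%, against 3.73% of all pairs) and control replicate 2 gave 9 (0.917% against 2.93%). Each auxin library left out gave 10 (1.02%), against 2.92% for replicate 1 and 2.36% for replicate 2. With the replicate block 157 ratios were called (16.0%, against 19.7% of all pairs). Besides the 3 pairs above, the 6 called ratios of the main fit included CCDC3-OPTN, RRP9-PARP3 and FGD6-VEZT. In these neither gene was called alone and the ratio of the plus-strand to the minus-strand gene rose. RRP9 and PARP3 overlap no other gene of the table, whereas CCDC3 overlaps 3, OPTN 1, FGD6 2 and VEZT 3.

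OPTN, an autophagy receptor, had 1306 and 1607 in control and 2425 and 3100 in auxin (change of 0.92 on the log2 scale, limma adjusted p = 0.0578). CCDC3, 510 bases away, had 1737 and 1511 in control and 1163 and 1285 in auxin (-0.41, adjusted p = 0.431). The ratio of OPTN to CCDC3 rose by 1.33 (SE 0.23, adjusted p = 0.0289). In RRP9-PARP3 the order of the groups was likewise opposite in the 2 genes. RRP9, a protein of the U3 snoRNP that acts in ribosome assembly, had 5976 and 5753 in control and 4038 and 3334 in auxin. PARP3, an ADP-ribosyltransferase of the DNA break response, had 857 and 975 in control and 1319 and 1270.0 in auxin. The ratio of PARP3 to RRP9 rose by 1.18 (SE 0.21, adjusted p = 0.032). FGD6, an exchange factor for Cdc42, had 6793 and 5642 in control and 3761 and 3604 in auxin (-0.75, adjusted p = 0.0502). VEZT, a protein of adherens junctions, had 7971 and 8557 in control and 9390.3 and 9485 in auxin (0.19, adjusted p = 0.689). The ratio of VEZT to FGD6 rose by 0.94 (SE 0.18, adjusted p = 0.0383), and this call was lost without control replicate 1 (0.055). The calls for CCDC3-OPTN and RRP9-PARP3 held without each library in turn.

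Across all pairs, the genes of a pair tended to lie on the same side, and the values were like those of differences between replicates. Over 982 pairs, Spearman's rho between the auxin change of the minus-strand and of the plus-strand gene was 0.268. For control replicate 1 minus control replicate 2 it was 0.283, and for auxin replicate 1 minus auxin replicate 2 it was 0.232. The 4 differences of a single auxin and a single control library gave 0.238, 0.257, 0.258 and 0.300, a range that overlaps the replicate values. In the auxin comparison 61.4% of pairs had both genes on 1 side of 0, against 58.7% and 57.0% in the control and auxin replicate differences. The median distance within a pair was 0.175 on the log2 scale for auxin against control, 0.207 between controls and 0.174 between auxin libraries. The first is a difference of means of 2 libraries. In the single-library differences it was 0.182, 0.227, 0.277 and 0.228. These are descriptions across pairs that share libraries, depth and base composition, and have no p-value. The control and auxin replicate differences correlated with each other across the genes of pairs (Spearman's rho 0.527), so they are not independent baselines.

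**Figure D4:**
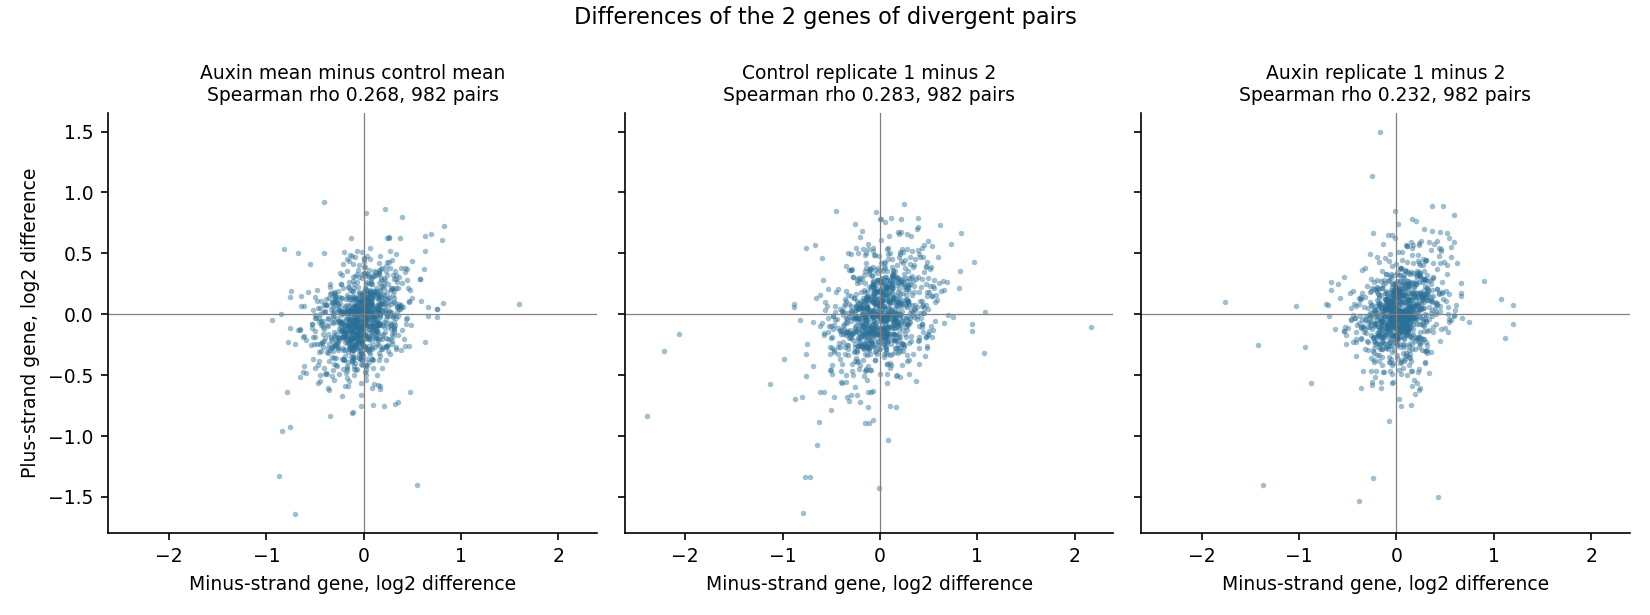
Log2 difference of the plus-strand gene (vertical) against that of the minus-strand gene (horizontal) for 982 divergent pairs, in auxin against control and between the replicates of each group. The 3 clouds have a similar tilt, with Spearman's rho of 0.268, 0.283 and 0.232.

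Because a library's own deviation enters both genes of a pair, the genes were also measured in disjoint libraries, an alternative added after the data were seen. With the minus-strand gene taken from auxin replicate 1 minus control replicate 1 and the plus-strand gene from auxin replicate 2 minus control replicate 2, rho was 0.141, and 0.193 the other way round. With the replicate numbers crossed, rho was 0.0156 and -0.00311. A gene set against itself in the same way gave 0.547 (minus strand) and 0.579 (plus strand) with equal numbers and 0.103 and 0.0532 with crossed numbers. Over these 982 pairs, a gene's rho with its partner was below its rho with itself under both arrangements. Replicate differences correlated between control and auxin across the genes of pairs (Spearman's rho 0.527). Such a shared part enters the crossed differences with opposite signs and lowers rho there by construction. The crossed values are therefore not a plain measure of agreement between partners, and the size of this effect was not tested. Among 609 pairs with both genes at a mean of at least 1000, partners gave 0.185 and 0.231 with equal numbers and 0.0578 and 0.0537 crossed, and genes with themselves 0.696 and 0.692, and 0.218 and 0.157 crossed. Among the 199 pairs in which neither gene overlapped another, partners gave 0.156 and 0.136, and -0.0102 and -0.0576 crossed. Genes with themselves gave 0.492 and 0.481 there, and 0.00733 and -0.0562 crossed, so with crossed numbers neither was far from 0.

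Values were alike across gaps inside 1000 bases. For auxin against control rho was 0.259 in 263 pairs with a gap of at most 100 bases, 0.271 in 439 pairs with more than that up to 300, 0.248 in 203 pairs up to 600 and 0.255 in 77 pairs up to 1000. The replicate differences varied more between these classes, from 0.0967 to 0.347 in control and from 0.167 to 0.346 in auxin. Divergent neighbours more than 1000 and up to 10000 bases apart had a rho of 0.150 for auxin and 0.144 and 0.212 for the replicate differences (524 pairs). Convergent neighbours within 1000 bases, whose ends rather than starts adjoin, had 0.331, with 0.157 and 0.274 (515 pairs). Tandem neighbours within 1000 bases had 0.252, with 0.162 and 0.248 (400 pairs). With genes in disjoint libraries and equal numbers, convergent neighbours gave 0.176 and 0.229 and tandem neighbours 0.190 and 0.208. The values of divergent pairs were close, at 0.141 and 0.193. Divergent neighbours more than 1000 and up to 10000 bases apart had the lowest values, 0.111 and 0.113. These classes were set side by side and their differences were not tested.

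**Figure D5:**
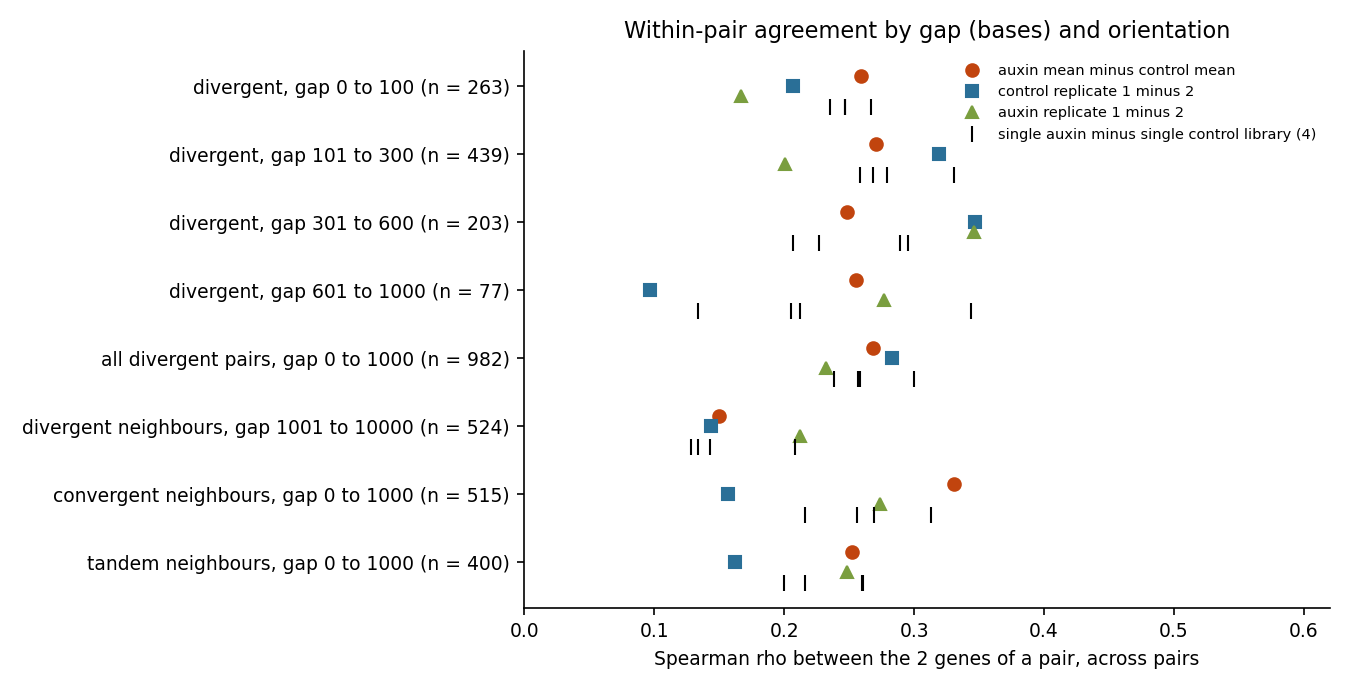
Spearman's rho across pairs between the differences of both genes (horizontal axis), by gap and orientation. Circles stand for auxin against control, squares and triangles for control and auxin replicate differences, and ticks for 4 single-library differences; for all divergent pairs the auxin value of 0.268 lies between the replicate values.

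Textbook divergent pairs were looked up by name. HSPD1-HSPE1 was not among the pairs, since the spans overlap in this table, and 11 others were. None of their 22 genes was called by limma, and 4 (18.2%) had an unadjusted p under 0.05, against 14.6% of protein-coding genes. PPAT and PAICS, enzymes of purine synthesis, were both lower in auxin: PPAT had 7576 and 8740 in control and 5589 and 5000.3 in auxin (-0.62 on the log2 scale, limma adjusted p = 0.0856), and PAICS 9710 and 12976 against 7445 and 8812 (-0.47, adjusted p = 0.282). Their groups did not overlap. NPAT, a coactivator of histone genes, had 3750 and 4112 in control and 2486 and 2923 in auxin (-0.54, adjusted p = 0.182), and ATM, the DNA damage kinase, 3047 and 2918 against 2694 and 2334 (-0.25). GART, another purine enzyme, had -0.47 (adjusted p = 0.255) beside SON, a splicing cofactor, at 0.051.

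The other textbook pairs had values closer to 0. The collagen genes COL4A1 and COL4A2 were barely transcribed, at 2.57 and 0.686 per kb in control, with log2 fold changes of -0.065 and 0.030. SMC1A, a cohesin subunit, had -0.16 beside RIBC1 at -0.082, and NELFE, a subunit of the pausing factor NELF, had -0.076 beside the exosome helicase SKIV2L (SKIC2) at -0.10. SURF1 and SURF2 had -0.15 and -0.11, SARS2 and MRPS12 -0.064 and -0.17, SIRT3 and PSMD13 0.059 and 0.018, and TK1 and AFMID -0.30 and -0.26. PDCD10 and SERPINI1 had 0.29 and 0.44, on very unequal levels of 87.3 and 2.64 per kb. The ratio within a pair was not called in any of the 11, with adjusted p from 0.152 for GART-SON upward.

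Gene groups were then counted, among them groups known from divergent promoters. Of the 88 DNA repair and replication genes listed, 28 (31.8%) were in divergent pairs, against 9.65% of all protein-coding genes. All 28 were tested and 1 was called (ORC1), where 0.732% of all genes and 1.17% of protein-coding genes were. An unadjusted p under 0.05 was found for 12 (42.9%), against 10.2% of all genes and 14.6% of protein-coding genes. Of the 28, 26 had a log2 fold change below 0, against 48.7% of all genes tested, with a median of -0.31 against 0.0089. Of the whole list of 88, 2 were called and the median was -0.45, so the list as a whole had the lower value. Examples are CDC45, a component of the replicative helicase (7471 and 8842 in control, 4189 and 5533 in auxin, a change of -0.76, limma adjusted p = 0.0808), and MCM2, a subunit of the same helicase (9187 and 11648, against 5248 and 7270, -0.74, adjusted p = 0.109). At the other end were LIG4 at 0.072 and POLH at 0.079. Their 29 tested partners had a median of -0.083, with 19 below 0. Leaving out each library in turn, the median of the 28 genes ran from -0.46 to -0.27 and 25 or 26 were below 0. Control replicate 1 minus control replicate 2 also had 20 of the 28 below 0 (median -0.15), and auxin replicate 1 minus auxin replicate 2 had 20 (-0.15).

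In the other groups limma called none of the 118 genes of divergent pairs tested, and 6 (5.08%) had an unadjusted p under 0.05, against 10.2% of all genes and 14.6% of protein-coding genes. Replication-dependent histone genes had 24 members in the pairs, mostly H2A-H2B pairs on chromosome 6. Of these 20 were tested, with a median of -0.096 and values from -0.51 (H2AC15) to 0.25 (H2BU1). That median rested on the control libraries: leaving out control replicate 1 gave -0.43, leaving out control replicate 2 gave 0.23, and control replicate 1 minus control replicate 2 had a median of -0.67. Mitochondrial ribosomal proteins (21 genes, median -0.11) ran from -0.32 (MRPL50) to 0.084 (MRPL47), with 15 below 0. Control replicate 1 minus control replicate 2 had 16 of the 21 below 0 (median -0.12), and leaving out control replicate 2 moved the auxin median to -0.063. The median over all 78 such genes of the list was also -0.11. Complex I genes (18 of 48) had a median of -0.054, moving to -0.097 when control replicate 2 was left out and to -0.030 when auxin replicate 1 was, and NDUFAF2, an assembly factor, stood lowest at -0.49 (5124 and 4522 in control, 3579 and 3260 in auxin, limma adjusted p = 0.195). Mitochondrial and cytosolic aminoacyl-tRNA synthetases (8 genes, -0.017) lay within -0.064 and 0.042, and proteasome genes (10 genes, 0.0069) within -0.15 and 0.13. Of the zinc finger genes, 41 of 516 (7.95%) were in such pairs, against 9.65% of all protein-coding genes, with a median of 0.010. The small medians of the last 2 groups changed sign when 1 library was left out, to -0.12 for proteasome genes without control replicate 1 and to -0.054 for zinc finger genes without control replicate 2. The lowest value was that of ZNF10 (-0.92), which had a signal of only 33.05 and 34.8 in control. The highest was that of ZNF860, with 579.9 and 495 in control and 865 and 1012 in auxin (0.80, limma adjusted p = 0.118).

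Pairs on either side of the gap limit are given as a description. The widest pairs inside were PRADC1-CCT7 (996 bases, log2 fold changes -0.25 and -0.098), CASKIN2-TSEN54 (990 bases, -0.12 and -0.39) and UBQLN4-LAMTOR2 (983 bases, -0.14 and 0.046). The nearest outside were SMIM7-TMEM38A (1008 bases, 0.080 and -0.69), APBA3-MRPL54 (1012 bases, -0.0050 and -0.014) and H3C7-H2BC9 (1015 bases, not both tested).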

How the data were processed

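The authors deposited 1 table with a signal per gene and library. Per the submitters' processing notes, Trimmomatic 0.39, Bowtie2 2.4.5 and deepTools 3.5.1 were used with hg38 and dm6. How reads became a signal per gene is not given in the sources used here, and the depth in reads is unknown. The deposit is labelled as read counts, and low values were whole multiples of a step per library. Long genes rarely held a single step, so the unit is unsure and the values were not taken as counts of reads. A control column with a misspelt name was assigned to control replicate 2. Tested genes had a signal of at least 10 (at the median library total) in 2 or more libraries and of 15 summed over all. Scaling used TMM, written out in R, which divided libraries by 0.999, 1.01, 0.816 and 1.21 and removes any change in total RNA. The log2 of the scaled signal plus 1 was fitted with limma 3.58.1 (R 4.3.3, intensity trend), auxin against control, with Benjamini-Hochberg adjustment and a threshold of 0.05. Fold changes of low genes are understated. Ratios within pairs were fitted likewise, with the trend on the lower gene. Positions count from 1. Promoter windows were matched by symbol, chromosome and strand (1564 of 1918 genes); longer motifs (NRF1, YY1) are not reported here. The pairs were chosen, and the lists fixed, with earlier results of these data known. Named were all pairs with a called gene, the pairs with the strongest ratio changes, textbook pairs, the 3 with the most signal per kb and those at the edge of the gap; names chosen otherwise are said to be. The fit was tested on simulated data. Alternatives were other scalings, pseudocounts of 0.1 and 10, filters, gaps, thresholds, the replicate block, genes overlapping no other, and each library left out.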

Additional observations from a re-analysis of the deposited data

How the results depend on the processing

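The 10 called genes became 1 on the deposited scale, 4 without the filter on low values, 4 among genes overlapping no other gene (801 tested, fewer by construction), 1 at an adjusted p under 0.01, and 3 to 25 without 1 library. The 6 called ratios became 1 among genes overlapping no other gene, 1 at an adjusted p under 0.01, 3 at a gap of at most 300 bases (fewer pairs), and 9 to 15 without 1 library. The within-pair rho of 0.268 ran from 0.248 to 0.295 without 1 library. It was 0.313 where neither gene overlapped another, 0.238 and 0.3 in the single differences of auxin 2 minus control 2 and auxin 2 minus control 1, and 0.141, 0.193, 0.0156 and -0.00311 in disjoint libraries. Other settings kept the counts within 1.5 times and rho within 0.026, its SD over the single differences. With the replicate block, 327 genes (110 higher, 217 lower) and 157 ratios were called, among them all 10 and all 6. For genes this is 17.2%, above the 10.8% of all genes in that fit, whereas the share was below that of all genes in the other settings listed. Genes of divergent pairs had a median scaled signal of 2550, against 237 over all genes tested, and its part in this share was not tested. The share of protein-coding genes in the block fit is not given here. For ratios the share called with the block is 16.0%, below the 19.7% of all pairs. The labels do not say that the numbers mark a shared day, and replicate differences correlated between control and auxin across the genes of pairs (Pearson's r 0.51, Spearman's rho 0.527) and less across all genes tested (0.231 and 0.306). Over 840 settings of named genes and ratios, 733 kept their side and sign, 49 lost a call, 29 gained one, 29 changed the sign of an uncalled value and 0 reversed a call. Except where stated, the cause was not tested. With 1 library left out, the lone library of its group is assumed to vary like the other group. The count models were not run, as the unit is unsure and the values were not taken as reads.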
